A study of Saccharomyces cerevisiae with 4 samples.

Results

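The genes described here encode 45 assembly factors of the small ribosomal subunit of Saccharomyces cerevisiae, most of them proteins of the small subunit processome. The members were given as a list of names with no threshold on a measured value, although the list was drawn up with earlier results of these data known, and each was found by its open reading frame among 5140 tested genes. RNA of strain BY4741, a haploid laboratory strain of mating type a, was hybridised to 4 Yeast Genome S98 arrays from Affymetrix. Of these, 2 held RNA of control cells and 2 held RNA of cells given 1 g/L quinine, an alkaloid used against malaria, for 15 min. All cells came from mid-exponential growth in MM4 medium and were moved to fresh medium. Quinine came in ethanol, which made up 0.7% of the final volume, and no source used here says whether control cells received ethanol. Nothing states that replicates came from separate cultures, so p values reflect only the scatter among these samples, and that scatter may be technical. STE2, the receptor gene of mating type a, gave 4282 and 4316 in controls, then 4076 and 3636 with quinine. STE3, the receptor gene of the opposite mating type, had 47.6 and 27.4 in controls and 45.2 and 33.0 with quinine. Not all markers listed gave such a contrast. SAG1, of the opposite mating type, had 527 and 600.2 in controls and 653 and 656 with quinine. MF(ALPHA)2, also of that type, was at 162 and 148, then 164 and 136. ASG7, of mating type a, was at 169 and 174, then 201 and 197. MFA1, MFA2, STE6, AGA2 and BAR1, also of mating type a, were above 1000 on each array. Of the genes that the strain lacks, only HIS3 was analysed here. It had high signals, 3901 and 4764 in controls and 3506 and 3277 with quinine. Its partial deletion can leave probes in place, which was not tested.

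Small ribosomal subunits are built in the nucleolus around the nascent ribosomal RNA precursor. The small subunit processome, also called the 90S pre-ribosome, folds the precursor with the help of the U3 small nucleolar RNA until the first cuts free the future 18S RNA. The complexes UtpA, UtpB and UtpC and the Mpp10 complex join as ready-made units, single proteins and RNA helicases join and leave along the way, and late factors escort the precursor out of the nucleus to its last cut in the cytoplasm. In yeast, genes of this kind are known to be expressed in step with growth.

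With quinine, all 45 genes had a lower mean log2 signal, as did 53.2% of the 5140 genes tested. In 45 of 45 the higher quinine array was still below the lower control array, an order seen in 29.8% of all genes. The opposite order was seen in 0 of the 45 and in 19.8% of all genes. The median log2 fold change of the 45 was -0.79, which is 57.9% of the control level, against a median of -0.02 over all genes. Their log2 fold changes ran from -1.49 for FAF1 to -0.22 for UTP10, with quartiles of -1.10 and -0.64. With 50 added to each signal the lowest value was -1.17, that of DBP8, and FAF1 was at -0.85. A level at least 2-fold lower was seen in 15 of the 45, or 33.3%, and in 1.26% of all genes. In limma, 38 of the 45 were lower at an unadjusted p under 0.05, as were 12.0% of all genes. At the same p 0 of the 45 and 6.38% of all genes were higher. After Benjamini-Hochberg adjustment over all genes 0 of the 45 passed 0.05, where 3 of 5140 genes, or 0.0584%, did so, none of them lower. The adjusted p values of the 45 lay between 0.0755 and 0.551. Without control replicate 1, 5 of them passed (FAF1, NOP14, LTV1, UTP14 and MPP10) among 132 of 5140 genes, and without control replicate 2 UTP7 and UTP30 did among 41. With 2 arrays against 2, an exact permutation test of a single gene cannot give a p below 0.333. Since RNA of whole cultures was labelled, a lower level in all cells, a lower level in some of them and less of these messages per amount of RNA cannot be told apart.

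**Figure D1:**
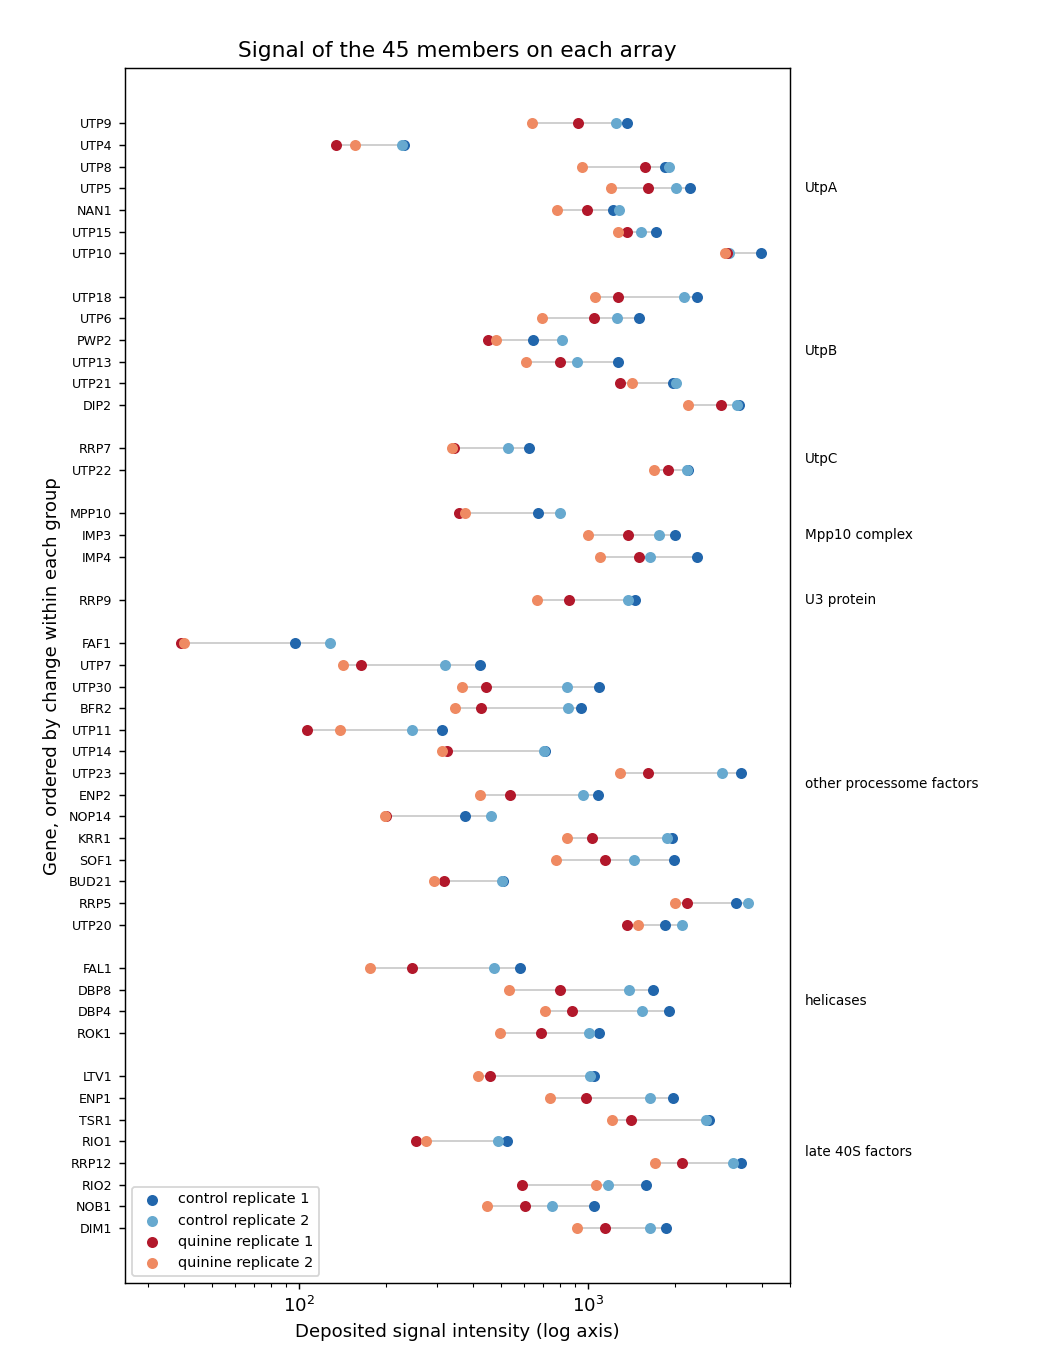
Deposited signal intensity (log axis) of each of the 45 genes on the 4 arrays, grouped by role and ordered by change. In all 45 rows both quinine points lie to the left of both control points, by the least margin in UTP10 and by a wide one in FAF1.

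The UtpA complex binds the start of the precursor first and has a role in transcription of the ribosomal RNA genes. Its 7 genes had a median log2 fold change of -0.62. In limma 4 of the 7 were lower at an unadjusted p under 0.05, against 12.0% of all genes. UTP9 gave signals of 1365 and 1245 in controls, and its quinine arrays read 919 and 639. The log2 fold change was -0.77 (standard error, SE, 0.22), and limma gave an adjusted p of 0.169. For UTP4 the signals were 231 and 227 in controls and 134 and 156 with quinine (log2 fold change -0.66, SE 0.17). In both genes the quinine arrays were clearly apart from the controls. UTP10, a very large scaffold protein, had the smallest difference of all 45: 3959.8 and 3072 in controls against 3021 and 2969 with quinine. Here the lower control array was almost level with the quinine arrays, the 95% interval of the log2 fold change ran from -0.64 to 0.20, and leaving out control replicate 2 or 1 moved the value to -0.40 or -0.04. After median centring of the arrays UTP10 was the 1 gene of the 45 whose groups overlapped. UTP15, UTP5, UTP8 and NAN1 (also called Utp17) lay between -0.30 and -0.62. Quinine replicate 2 weighed on several of these values. Without it the median of UtpA was -0.33, UTP9 was at -0.50, UTP5 at -0.40, UTP8 at -0.26 and NAN1 at -0.33, while UTP8 was at -0.98 without quinine replicate 1.

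UtpB bridges the start of the precursor and the U3 RNA. Its 6 genes had a median of -0.63, and 5 of the 6 were lower at an unadjusted p under 0.05, against 12.0% of all genes. UTP18, whose protein calls in the RNA exosome that degrades the cut-off spacer, stood lowest, with 2374 and 2148 in controls and 1271 and 1059 with quinine. Its log2 fold change was -0.96 (SE 0.18, adjusted p 0.0848 in limma), 51.4% of the control level. UTP6 had 1498 and 1254 in controls and 1048 and 693 with quinine, so that its quinine arrays differed from each other more than its controls did. DIP2, also called Utp12, had 3309.7 and 3279.8 in controls against 2868 and 2214 with quinine, a log2 fold change of -0.39 whose 95% interval reached 0.04. PWP2, UTP13 and UTP21, which encode further beta-propeller subunits, were at -0.64, -0.63 and -0.55. Without quinine replicate 2 UTP6 was at -0.39 and DIP2 at -0.20, and without control replicate 1 UTP13 was at -0.39.

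In UtpC, the pair of genes differed in size of change. RRP7 was at 622 and 529.5 in controls and 344 and 337 with quinine, a log2 fold change of -0.75 (SE 0.17). UTP22 was at 2211 and 2204 in controls and 1884 and 1685 with quinine, a log2 fold change of -0.31 (SE 0.16). For RRP7 the log2 ratio of replicate 2 to replicate 1 was -0.23 in controls and -0.03 with quinine. For UTP22 it was 0.0 and -0.16. The intervals of their changes, -1.17 to -0.34 for RRP7 and -0.70 to 0.08 for UTP22, overlapped. Other UtpC genes are among the further 90S and pre-40S genes described below. Of these, RRP36 was at -1.03. The casein kinase 2 genes CKA2, CKA1, CKB1 and CKB2 were at -0.49, -0.31, -0.05 and -0.01.

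The Mpp10 complex docks on the hybrid of U3 and precursor, and its subunits Imp3 and Imp4 help that hybrid to form. MPP10 had 672 and 796 in controls and 357 and 375 with quinine, with control and quinine arrays well apart (SE 0.17, adjusted p 0.0794 in limma). IMP3 was at 2000.5 and 1751 in controls and 1368 and 996 with quinine, and IMP4 at 2372 and 1636 in controls and 1497 and 1097 with quinine. In IMP4 the lower control array was near the higher quinine array, and its interval ran from -1.25 to 0.01. Without control replicate 1 it was at -0.35, and without quinine replicate 2 IMP4 was at -0.40 and IMP3 at -0.45. RRP9, which encodes the protein found only in the U3 particle, was at 1451 and 1369.6 in controls and 858 and 664 with quinine (log2 fold change -0.90, SE 0.19).

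The largest group was that of 14 processome proteins outside these complexes. Its median was -1.11, or 46.2% of the control level. All 14 were lower at an unadjusted p under 0.05, against 12.0% of all genes. At least 2-fold lower were 10 of the 14, against 1.26% of all genes. FAF1, which encodes a partner of Krr1, had the lowest value of the 45 on the log2 scale of the deposited signals. It was at 96.7 and 128 in controls and 39.0 and 39.9 with quinine, a log2 fold change of -1.49 (SE 0.22, adjusted p 0.0755 in limma). At signals this low the value depended on the scale, and with 50 added to each signal it was -0.85, no longer the lowest. UTP7, a beta-propeller protein, had 423 and 320.4 in controls and 164 and 142 with quinine, 2.42-fold lower. The next values were those of UTP30, a relative of the ribosomal protein of the L1 stalk, at -1.25, of BFR2 at -1.22 and of UTP11 at -1.19. UTP14, whose protein switches on the helicase Dhr1, was at -1.15 with an SE of 0.15. UTP23, related to nucleases of the PIN family, was at -1.13, ENP2 at -1.10, NOP14 at -1.07 and KRR1 at -1.03. SOF1, BUD21 (also called Utp16) and RRP5, which serves both subunits, were at -0.85, -0.74 and -0.70. UTP20, another giant scaffold protein, had the smallest difference of the group, with 1843 and 2104 in controls and 1364 and 1492 with quinine, a log2 fold change of -0.46 (SE 0.17).

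The 4 RNA helicases of the DEAD-box family, enzymes that unwind or release RNA, had a median of -1.17, or 44.3% of the control level. FAL1, a relative of the translation factor eIF4A, was at 581 and 473 in controls and 245 and 176 with quinine, 2.53-fold lower (SE 0.22 on the log2 scale, adjusted p 0.0761 in limma). DBP8 was at 1681 and 1383 in controls and 798 and 530.2 with quinine, 2.34-fold lower. DBP4, listed as HCA4 in the gene table, which frees small nucleolar RNAs from the precursor, was 2.17-fold lower. ROK1 showed the smallest difference, from 1092 and 1005 to 687 and 495, a log2 fold change of -0.84 (SE 0.21). In each of the 4 genes replicate 1 was the higher array in both groups. Helicase genes among the further 90S and pre-40S genes below had mostly smaller differences. RRP3 was at -0.57, PRP43 at -0.77, ECM16 (Dhr1) at -0.82 and DHR2 at -1.24.

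The 8 late factors travel with the precursor of the 40S subunit. Their median was -0.86, or 55.1% of the control level. In limma 7 of the 8 were lower at an unadjusted p under 0.05, against 12.0% of all genes. LTV1, which marks the beak of the pre-40S particle, had 1046 and 1015 in controls and 456 and 415 with quinine. Its log2 fold change of -1.24 (SE 0.16) had the smallest unadjusted p of the 45, 2.87e-04, and an adjusted p of 0.0755 in limma. ENP1, its partner on the particle, was at 1957 and 1641 in controls and 981 and 740 with quinine, 2.10-fold lower. DIM1, the methylase of the 18S RNA, was at 1851 and 1629.8 in controls and 1147 and 913 with quinine, 1.70-fold lower. Between them lay TSR1, a GTPase-like factor, at -0.99, the export factor RRP12 at -0.79 and NOB1, the nuclease of the last cut, at -0.77. The atypical kinase genes RIO1 and RIO2 had log2 fold changes of -0.93 (SE 0.16) and -0.79 (SE 0.32). RIO2, singled out after its values were seen, read 1589 and 1175 in controls, then 591 and 1063 with quinine, the widest split between quinine arrays of the 45. Its value was -1.21 without quinine replicate 2 and -0.36 without quinine replicate 1.

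**Figure D2:**
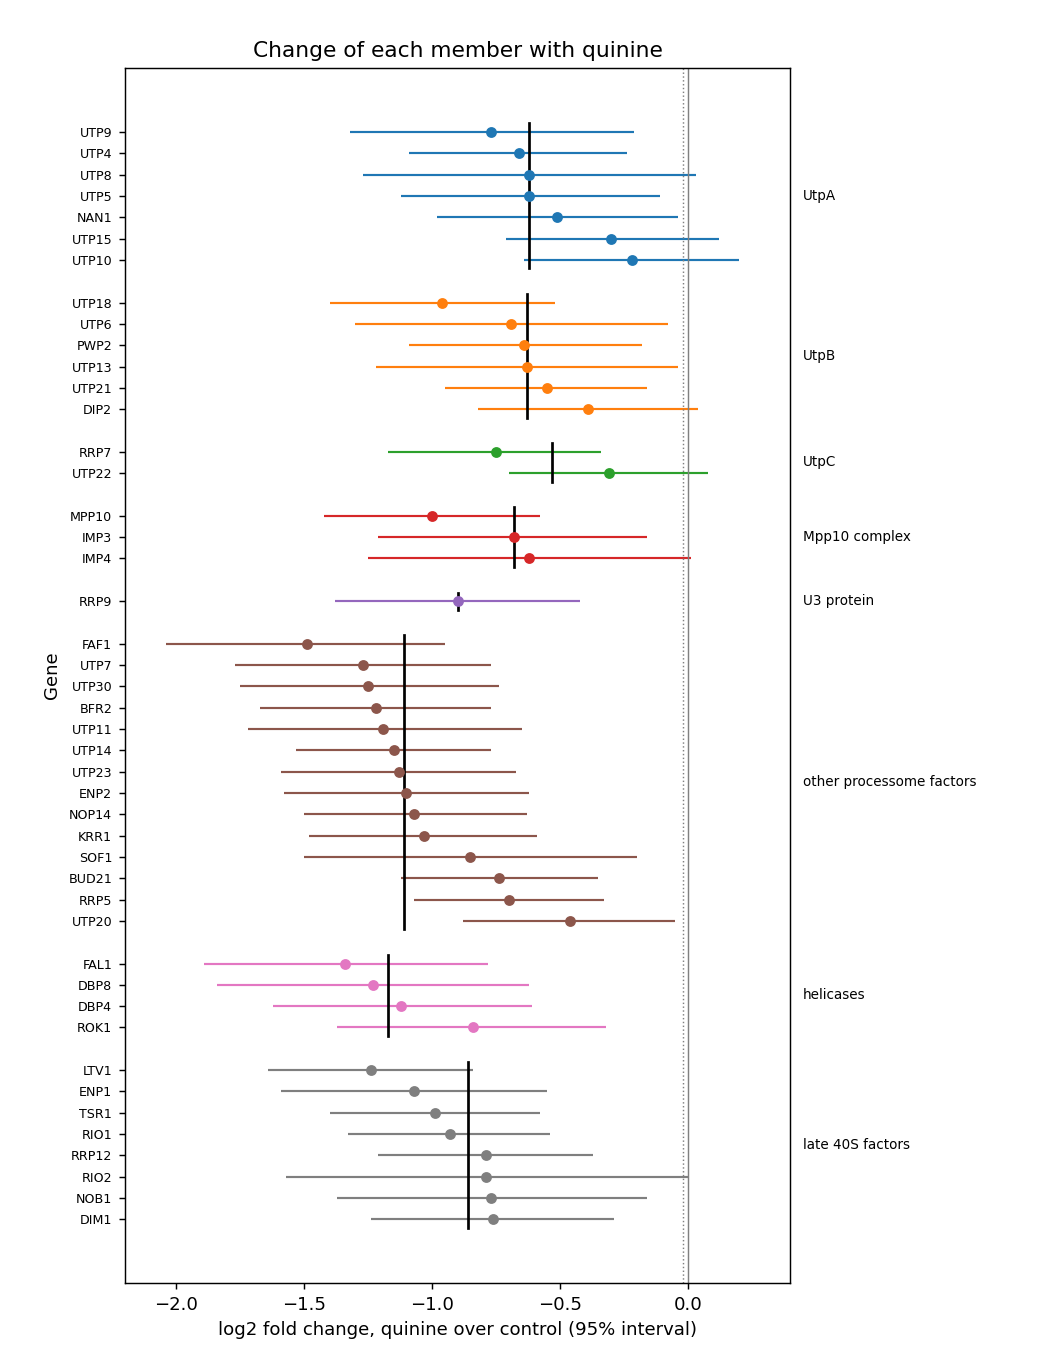
Log2 fold change of each gene (points) with its 95% interval from limma (bars), by role; black ticks mark the median of each role and the dotted line the median of all genes, -0.02. All 45 points lie left of 0, and the medians of the processome factors outside the complexes (-1.11) and of the helicases (-1.17) lie left of those of UtpA (-0.62) and UtpB (-0.63).

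Among the genes placed in a role here, the median difference was smaller for subunits of ready-made complexes than for the other factors. The 19 genes of UtpA, UtpB, UtpC, the Mpp10 complex and Rrp9 had a median of -0.63 and 0 of 19 were at least 2-fold lower, although MPP10, at -1.0 after rounding, missed that level narrowly. For the 26 other genes the median was -1.07, and 15 of 26 were at least 2-fold lower, where 1.26% of all genes were. The 19 do not hold every UtpC gene. RRP36, kept among the further 90S and pre-40S genes, was at -1.03, or 2.04-fold lower. The UtpC genes CKA2, CKA1, CKB1 and CKB2, kept there too, went the other way, between -0.49 and -0.01. How the contrast would change with another placing of genes was not tested. Relative to control means, the median of the 19 was -0.43 and -0.82 on quinine replicates 1 and 2. That of the 26 was -0.95 and -1.15. The gap was thus present on both quinine arrays but narrower on replicate 2. On that array the Mpp10 complex (-0.91) and RRP9 (-1.09) were near the late factors (-0.97). Of single roles, the median of UtpA lay above that of the helicases by 0.62 and 0.72 on quinine replicates 1 and 2. It lay above that of the late factors by 0.54 and 0.29. No test was made of these differences, because the genes and their roles were chosen with earlier results of these data known. In 41 further 90S and pre-40S genes, described below and not sorted by role, the median was -0.73. At least 2-fold lower were 5 of the 41, or 12.2%. Both values were nearer to those of the 19 genes than to those of the 26. Single genes of neighbouring ranks did not differ beyond their standard errors, whose median was 0.19.

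Among the 45, genes with higher control signals and longer genes had smaller differences. Over the 45, the log2 fold change had a correlation of 0.49 (Pearson) and 0.46 (Spearman) with the mean log2 control signal, and of 0.44 by both measures with the log2 length of the gene. The points share the same 4 arrays, and genes are not independent replicates. Over all 5140 genes the Pearson values were -0.08 for signal and 0.01 for length. With signal, they were 0.55 over 60 large subunit factors and 0.30 over 41 other 90S and pre-40S genes, so a positive value was not limited to the 45. With length, the values in those lists were 0.17 and -0.08. Among the 30 genes with a mean control signal of at least 1000, a split chosen after seeing the data, the median was -0.62 for 15 subunits of the complexes and -0.99 for 15 other factors. Among 17 genes of at least 2000 bases the medians were -0.55 for 9 subunits and -1.03 for 8 other factors, and among 28 shorter genes -0.72 for 10 and -1.10 for 18. The part of signal and length in the values of single genes was not tested. The longest genes of the list, UTP20, UTP10, RRP5 and UTP22, had log2 fold changes of -0.46, -0.22, -0.70 and -0.31.

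Replicate 1 was above replicate 2 in 36 of the 45 genes in controls, and in a smaller share, 2868 of 5140, of all genes. With quinine it was above in 36 of the 45 and in 3527 of all genes, again a smaller share. In 8 of the 45 the order differed between groups. Relative to the control mean, the median of the 45 was -0.72 on quinine replicate 1 and -0.98 on quinine replicate 2, against 0.07 and -0.07 for controls. The same medians over all genes were 0.03 and -0.08 with quinine. Per gene of the 45, controls differed from each other by a median of 0.18 log2 units and quinine arrays by 0.31, both less than the median difference between groups. Over all genes these medians were 0.21 and 0.20, so the quinine arrays differed more in the 45 than in all genes.

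For 2 of the giant genes the array holds further probe sets that name the gene in their text, but are placed on a chromosome rather than an open reading frame, and no source used here says what stretch they detect. UTP20 has 9 of them and UTP22 has 4. For UTP20 only 5 of the 9 were called Present, that is detected, on all 4 arrays. On 8 of the 9 for UTP20, replicate 2 was 1.40 to 2.74 times replicate 1 in controls and 1.93 to 4.62 times with quinine. The ratio of 4.62 came from low signals, 14.4 and 66.7, of a feature Present on 3 arrays. The remaining feature was at 1607 and 1753 in controls and 1140.5 and 1343 with quinine. It was the 1 feature of the 9 whose groups did not overlap, with a log2 difference of -0.44 against -0.46 for the open reading frame. The other 8 had log2 differences between -0.54 and 0.29, the latter from a feature Present on 2 arrays. For UTP22 the 4 values lay between -0.45 and -0.07. In 3 of those 4 replicate 2 was again above replicate 1, by 1.88 to 2.52 times in controls, while the other, at 1402 and 1446 against 1234 and 1203, kept its groups apart. The probe sets of the open reading frames showed no such split: for UTP20, replicate 2 was 1.14 times replicate 1 in controls and 1.09 times with quinine. These features entered no fit.

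**Figure D3:**
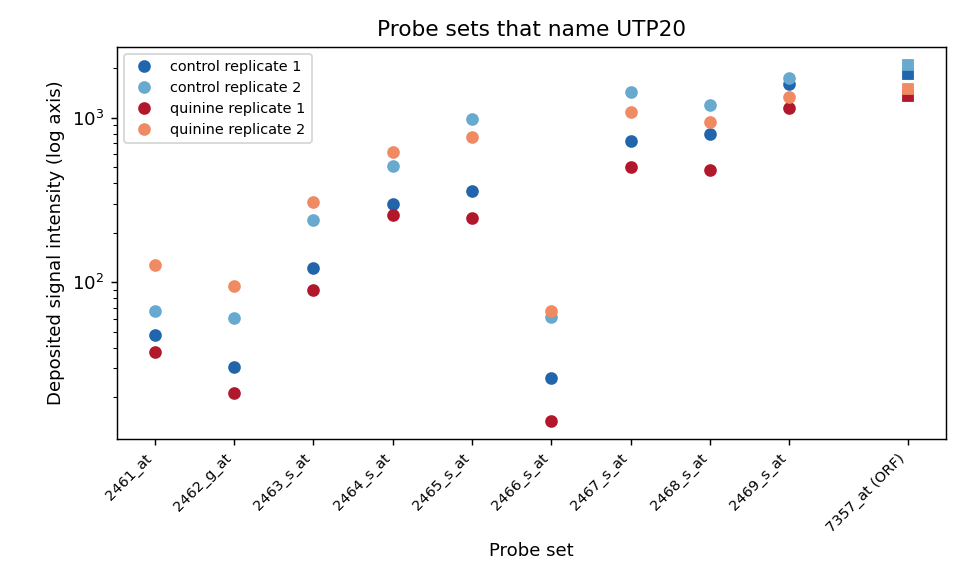
Deposited signal intensity (log axis) of the 9 probe sets that name UTP20 in their text (circles) and of the probe set of its open reading frame (squares), in order of probe set number. On most circles the replicate 2 arrays lie above the replicate 1 arrays of both groups, whereas the last circle and the squares separate control from quinine.

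Other genes of the same pathway behaved alike. Of 42 further 90S and pre-40S genes listed, 41 were tested. All 41 were lower, with a median of -0.73, and 37 of 41 had no overlap between groups against 29.8% of all genes. In limma 30 of the 41 were lower at an unadjusted p under 0.05, as were 12.0% of all genes. After adjustment over all genes 0 of the 41 passed. The lowest were RRT14 (563 and 544 in controls, 249 and 194 with quinine), the helicase gene DHR2 (1799 and 1393, then 819 and 551), PXR1, an activator of the helicase Prp43 (999 and 1184, then 514 and 519.9), and TSR2, a chaperone of a ribosomal protein (435 and 316, then 188 and 172). At the other end stood CKB2 and CKB1, which encode the regulatory subunits of casein kinase 2, also part of UtpC. CKB2 was at 2441 and 2089 in controls, then 2337 and 2158, a log2 fold change of -0.01 (SE 0.16). CKB1 was at 1947 and 1837, then 2013 and 1651, a log2 fold change of -0.05 (SE 0.18). Groups overlapped in both, and also in the assembly factor genes EMG1, at -0.12, and RCL1, at -0.21, named after their values were seen.

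Factors of the large subunit, listed for comparison, had a median of -0.82 over 60 genes, which is within the range of the role medians above. Of the 60, 59 were lower, against 53.2% of all genes. The median of 40 tested genes of the 40S ribosomal proteins was -0.03, with 26 lower and 14 higher and 0 at an unadjusted p under 0.05. Many of those come in nearly identical pairs whose probes can share targets, and probe sets naming several genes were left out. Relative to control means, the 40S ribosomal protein median was -0.03 and -0.02 with quinine, where the 45 assembly factors stood at -0.72 and -0.98. Control signals of the 40 ribosomal protein genes ran from 3622 to 24523, whereas the highest of the 45 was 3959.8. The part of signal level in this contrast was not tested.

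**Figure D4:**
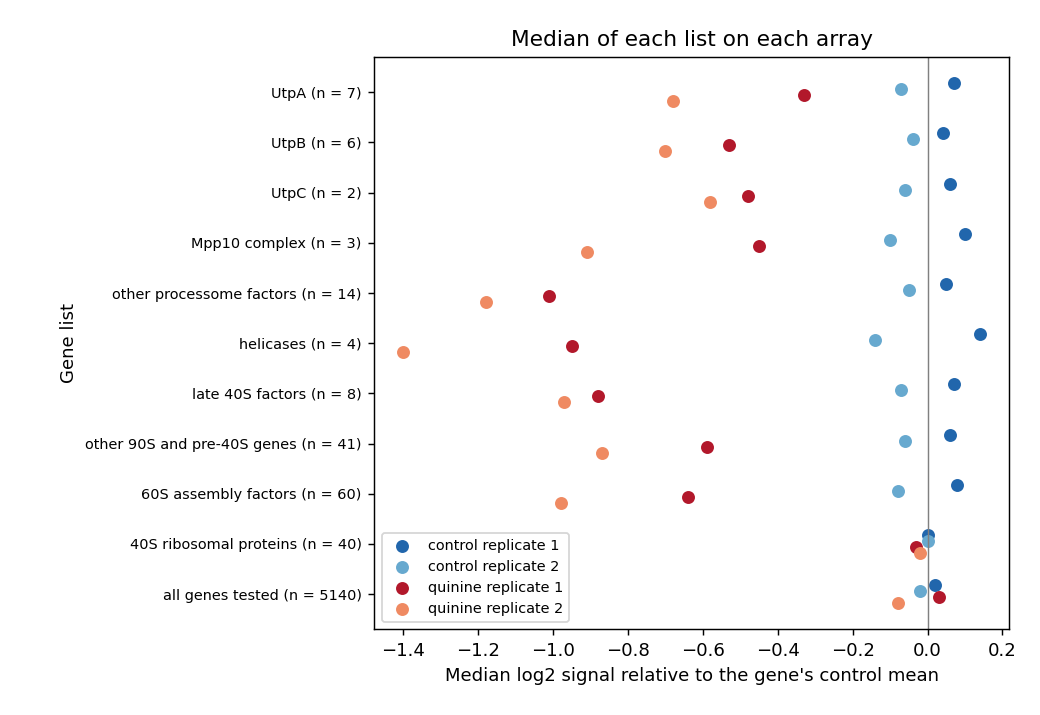
Median log2 signal of each gene list on each array, relative to each gene's control mean (0 line). Every list of assembly factors has both quinine points well left of both control points, from -0.33 for UtpA to -1.40 for the helicases, whereas the 40S ribosomal proteins and all genes stay within 0.08 of 0.

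The authors' deposited table gives a fold with bounds for each probe set and marks some. The authors' deposited table marks 32 of the 45 as lower and 0 as higher, where 8.27% of all tested genes were marked as lower and 4.38% as higher. In that table the lower bound of the fold was below 1.2 in size for each of the 13 unmarked genes. These were UTP5, UTP8, UTP10, UTP15 and NAN1 of UtpA, UTP6, UTP13 and DIP2 of UtpB, and UTP22, IMP4, SOF1, RIO2 and NOB1. The authors' deposited table gave its largest fold among the 45 to FAF1, 2.85 in size with bounds of 2.18 and 3.55, and its smallest to UTP10, 1.17.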

How the data were processed

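The deposited values are linear signal intensities, 1 per probe set and array, for 7519 probe sets. MAS5 is named, per the submitters' processing notes, without its role, and no source used here states the scaling. The array medians lay between 596.4 and 635.8. Each array took cRNA with a biotin label from 8 ug of RNA, per the labels' protocols. The authors' deposited table adds each group's mean intensity, with a standard error, fold and bounds that are the authors' scores, and the percent of arrays called Present, deposited as a percent.

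Probe sets naming 1 gene by an open reading frame of the R64 gene table (5316) were kept if Present on at least 2 of the 4 arrays (5245), and the brightest was used per gene, giving 5140 genes. All 45 genes were Present on all 4 arrays. No further normalization was applied, and log2 was taken without a pseudocount. The groups were compared with limma 3.58.1 (R 4.3.3) by lmFit and eBayes, using an intensity trend in the prior variance, with Benjamini-Hochberg adjustment over all genes, 2 residual degrees of freedom and a prior of 3.88. The fit was also run on simulated data with known changes and independent noise on each array. That setting held no effect shared by arrays of the same replicate number, so it does not test the p values under such an effect. The number of arrays limits the precision.

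Signals are listed as replicate 1 then replicate 2. Signal values were given for the 2 lowest and the 1 highest gene of each role (all in roles of up to 3), and of other pathway genes for the 4 lowest and 2 highest. The genes, lists and role groups were chosen with earlier results of these data known. Planned promoter motifs and protein stretches were not analysed here, and no coordinates are given. Alternatives were another normalization, pseudocount, filter, probe set rule, variance prior, replicate block and leaving out each array.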

Additional observations from a re-analysis of the deposited data

How the results depend on the processing

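All 45 genes kept a negative log2 fold change under the 12 alternatives that were fitted. The count at an unadjusted p under 0.05, 38 of 45, ranged from 29 to 43, and 32 of the 45 counted as lower by the bound in the authors' deposited table. With log2(signal + 50) the median of the processome factors outside the complexes was -0.96. When 1 array was left out, medians lay between -0.98 and -0.72 for the 45 genes, -0.68 and -0.33 for UtpA, -0.70 and -0.53 for UtpB, -1.40 and -0.95 for the helicases, -1.18 and -1.01 for the other processome factors and -1.0 and -0.81 for the late factors, and between 0 and 5 of the 45 passed an adjusted p of 0.05. In those fits the lone array of a group is assumed to vary like the others. Single values moved by over 1.5 times in 11 of the 45 genes. The cause of these shifts was not tested. Over all genes 3 passed in the reported fit, 5 after median centring, 4 with log2(signal + 50), 1 with the mean of probe sets, and 0 after quantile normalization or without a variance trend. Without control replicate 1, 132 genes passed, without control replicate 2, 41, and without either quinine array 0. The groups share replicate numbers, and the deviations of replicate 1 from the group means had a correlation of 0.62 over all genes and 0.24 over the 45. With 2 pairs and no label on a shared batch, whether arrays of the same number were paired cannot be told. With the replicate number as a block, 42 of the 45 and 1461 of all genes passed, on 1 residual degree of freedom and with an infinite prior, so that all genes of a given signal shared 1 variance. Promoter motif alternatives were not run.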

Other observations

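Position along the chromosomes was compared as a description, using the order of protein-coding genes in the R64 table. Of the 45 genes, 3 (6.67%) lay next to another assembly factor of the lists used here, and 0 next to another of the 45, while 4.85% of all protein-coding genes had such a neighbour. The pairs were DBP8 with NMD3, UTP13 with RSA3 and UTP9 with RIX1, whose large subunit partners had log2 fold changes of -0.44, -1.11 and -0.67. In 77 neighbour places held by genes outside the lists and tested here, the median log2 fold change was -0.04, with a range from -0.75 to 1.01. Lower values were seen in 41 of the 77 places, against 53.2% of all genes.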
